A study of Mus musculus with 12 samples.

Results

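The genes described here are 10 components of tumour necrosis factor (TNF) death signalling and necroptosis: the ligand gene Tnf, its receptor gene Tnfrsf1a, Ripk1, Birc3, Tnfaip3, Fadd, Casp8, Ripk3, Mlkl and Zbp1. They were picked by symbol from the 27821 gene symbols listed in the study, with earlier results of these data known, and all 10 were found. Messenger RNA was sequenced in 12 mouse libraries in 4 groups of 3. Wild-type (WT) mice at postnatal day 42 gave white adipose tissue (WAT), as did Xap5 Adiponectin-cKO mice of that age, in which Xap5, encoded by Fam50a, is deleted in mature adipocytes (WAT WT and WAT cKO). Adipocytes of WT and cKO animals (Adipocyte WT and Adipocyte KO) were differentiated from pre-adipocytes of newborn white fat, with insulin, dexamethasone and IBMX, and sampled on day 8. In both designs the deletion is set by adiponectin expression, so cells of WAT that are not adipocytes, and culture cells that have not matured, are expected to keep the gene. The labels give neither strain nor sex, and they do not name separate animals or cultures for the 3 libraries of a group, so p-values here cover the spread among these libraries, part or all of which may be technical. The study's interest was adipocyte development and cell death under loss of Xap5, and these genes are the machinery of one form of death.

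As background, TNF binds TNF receptor 1, the product of Tnfrsf1a, which assembles a membrane complex around the kinase RIPK1. The ubiquitin ligase cIAP2, encoded by Birc3, modifies RIPK1 there, and A20, encoded by Tnfaip3, edits ubiquitin chains and limits the NF-kB response; Tnfaip3 and Birc3 are themselves classical NF-kB target genes. When that complex gives way, RIPK1 can join FADD and caspase-8 in a cytosolic complex that leads to apoptosis, and caspase-8 also cleaves RIPK1 and RIPK3. Where caspase-8 is not active, RIPK3 phosphorylates MLKL, which ruptures the plasma membrane in necroptosis. ZBP1, a sensor of Z-form nucleic acid induced by interferon, can engage RIPK3 without TNF. Most of this control acts on proteins, and the data here are transcript levels.

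Fam50a was measured in each library as a check of the labels. In WAT it lay between 32.5 and 36.5 CPM in WT and between 16.8 and 28.9 CPM in cKO, where CPM are reads as a share of the library's total, adjusted by TMM, the trimmed mean of M-values. It fell by 0.60 on the log2 scale (standard error, SE, 0.20; adjusted p = 0.0395), but by library size only its value was 0.09, and 4 of the 6 fits that omit 1 library lost the call, as did the fit corrected for transcript length and GC content (adjusted p = 0.435). Those libraries were WT replicates 1, 2 and 3 (adjusted p = 0.0916, 0.0756 and 0.108) and cKO replicate 1 (0.0847). It did not pass in culture (-0.26, SE 0.12, adjusted p = 0.134). Reads from outside the deleted stretch count toward the gene, so these values do not settle the labels.

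Library totals ran from 28844370 to 33997204 counts in WAT and from 10863158 to 21773610 in culture. Levels of cell type markers moved with genotype in WAT. The summed level of 6 adipocyte markers was 49710 to 53570 CPM in WT and 6460 to 16000 CPM in cKO, and 5 of the 6 were lower. That of 8 macrophage markers was 411 to 633 CPM in WT and 1848 to 4060 CPM in cKO, with 7 of the 8 higher, all 4 fibroblast and progenitor markers and 2 of 3 tested mast cell markers were higher, and all 4 endothelial markers were lower (794 to 1112 CPM summed in WT, 421 to 640 CPM in cKO). Levels of some cell type markers differed between genotypes in culture as well. The cultures also held macrophage RNA, at 2758 to 3028 CPM over the same 8 markers in WT and 2000 to 2361 CPM in KO, where 3 of the 8 were lower. Their adipocyte markers summed to 15220 to 16380 CPM in WT and 21090 to 25310 CPM in KO (3 of 5 tested higher), and 2 of 4 endothelial markers and 1 of 3 tested fibroblast and progenitor markers were lower. All 8 macrophage markers were detected in both tables. Epithelial markers summed to 626 CPM in cKO replicate 3 and to no more than 27.7 CPM in any other library. Skeletal muscle markers summed to 1404 CPM in WAT WT replicate 3 and 1064 CPM in WAT cKO replicate 1, against 31.2 to 224 CPM in the other 4 WAT libraries. In bulk RNA, fewer cells of a type and less RNA per cell cannot be told apart, and the part of these cell mixtures in the results below was not tested.

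RefSeq (GRCm38.p6) gives a promoter, taken as 250 bases before to 50 after the start of transcription, for 9 of the 10 genes, with 11 starts in all; Zbp1 was not matched. Each was searched on both strands for the kappa B consensus of NF-kB and for the interferon-stimulated response element (ISRE: GAAA, any pair of bases, GAAA), and no match of one overlapped the other. Among 32851 promoters of that length, 8.46% hold the first and 3.44% the second. In the 10 genes the kappa B consensus was met at 1 start, the first of Tnfaip3, where it begins at bases -125 and -12, and the ISRE at 1 start, the second of Ripk1, where it begins at base -5. Those stretches follow, with matches in capitals, beside those of Ripk3 and Birc3, which were the genes that were higher in cKO WAT and which hold neither motif. Each runs 5′ to 3′ on the gene's strand, from 250 bases before to 30 after the start: Ripk3 at chr14:55788828-55789107 (minus strand), Birc3 at chr9:7873141-7873420 (minus), Tnfaip3 at chr10:19015381-19015660 (minus) and Ripk1 at chr13:34002624-34002903 (plus).
Ripk3: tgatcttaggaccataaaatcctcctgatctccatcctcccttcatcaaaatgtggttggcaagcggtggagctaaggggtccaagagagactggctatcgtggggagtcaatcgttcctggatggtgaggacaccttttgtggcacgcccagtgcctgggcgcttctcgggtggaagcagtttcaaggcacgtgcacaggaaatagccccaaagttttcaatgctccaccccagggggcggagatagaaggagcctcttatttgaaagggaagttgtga
Birc3: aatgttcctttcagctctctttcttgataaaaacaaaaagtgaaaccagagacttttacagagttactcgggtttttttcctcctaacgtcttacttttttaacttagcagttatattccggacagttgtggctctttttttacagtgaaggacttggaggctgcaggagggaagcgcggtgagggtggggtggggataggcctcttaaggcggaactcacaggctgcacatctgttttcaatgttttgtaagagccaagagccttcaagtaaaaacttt
Tnfaip3, first start: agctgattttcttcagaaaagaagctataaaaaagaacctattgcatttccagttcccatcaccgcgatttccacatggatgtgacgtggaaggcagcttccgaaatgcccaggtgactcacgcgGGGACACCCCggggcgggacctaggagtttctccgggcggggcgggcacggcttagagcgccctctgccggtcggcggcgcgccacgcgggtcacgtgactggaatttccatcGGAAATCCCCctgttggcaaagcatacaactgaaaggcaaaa
Ripk1, second start: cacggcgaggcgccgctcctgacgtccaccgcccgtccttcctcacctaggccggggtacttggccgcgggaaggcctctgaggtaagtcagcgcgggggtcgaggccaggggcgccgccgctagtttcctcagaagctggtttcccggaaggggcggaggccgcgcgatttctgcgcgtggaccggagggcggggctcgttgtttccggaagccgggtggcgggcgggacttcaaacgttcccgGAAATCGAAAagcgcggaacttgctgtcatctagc
A match describes letters in this window and no more, and its absence says nothing of a factor's binding elsewhere.

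In WAT, transcripts of the necroptosis kinase gene Ripk3 rose about 3-fold in cKO and those of the ubiquitin ligase gene Birc3 rose 1.70-fold. Transcripts of the receptor gene Tnfrsf1a fell to 64.3% and those of the adaptor gene Fadd to 65.1% of the WT level. The other 6 genes did not pass an adjusted p of 0.05, among them Mlkl, the executioner of necroptosis. The 2 higher genes of 10 stand beside 28.2% of all 16293 genes tested that were higher in cKO WAT, and the 2 lower genes beside 24.2% that were lower. The median log2 fold change of the 10 genes was 0.51, against 0.12 over all genes.

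These directions rest in part on how the libraries are scaled. TMM factors were 0.781 to 0.796 in WT and 1.23 to 1.30 in cKO WAT, and scaling by library size only moves every log2 fold change in WAT up by about 0.68. On that scale 8 of the 10 genes were higher and 0 lower, where 54.2% of all genes were higher and 8.76% lower. Ripk3 (2.34, adjusted p = 0.000411) and Birc3 (1.45, adjusted p = 0.00113) were higher on both scales. Fadd (0.06, adjusted p = 0.750) and Tnfrsf1a (0.04, adjusted p = 0.785) did not pass on the second scale, so their fall is relative to the bulk of genes. The fold change plot sets both scalings side by side.

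**Figure D1:**
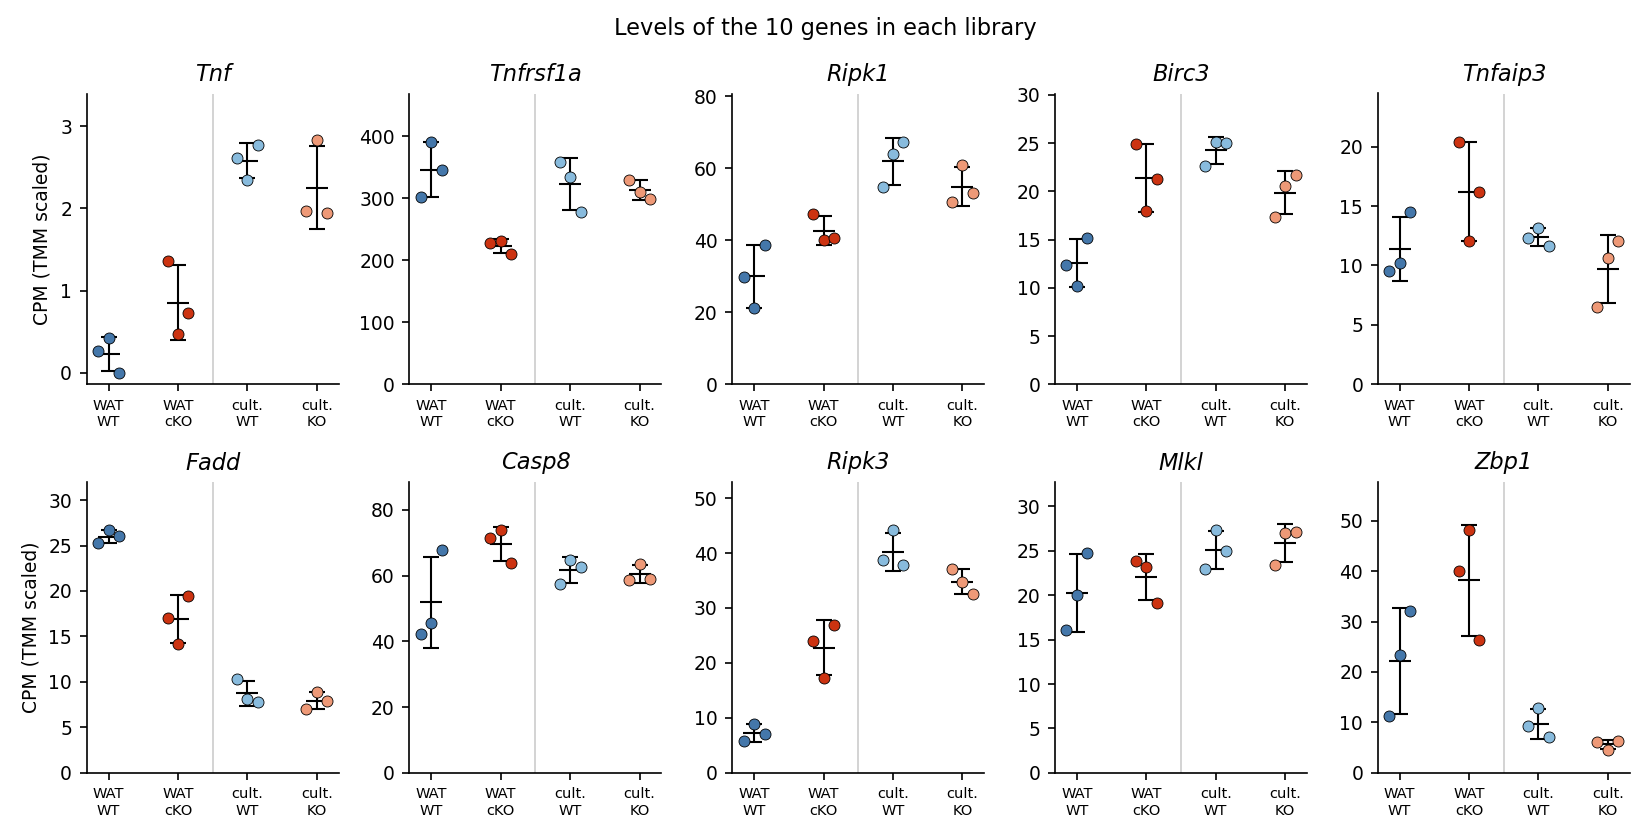
Level of each of the 10 genes (CPM, TMM scaled, within WAT or within culture) in each of the 12 libraries; points are libraries and bars are mean ± SD (n = 3). In WAT the cKO points of Ripk3 and Birc3 lie above, and those of Fadd and Tnfrsf1a below, all WT points, while in culture the groups lie close together apart from Zbp1.

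**Figure D2:**
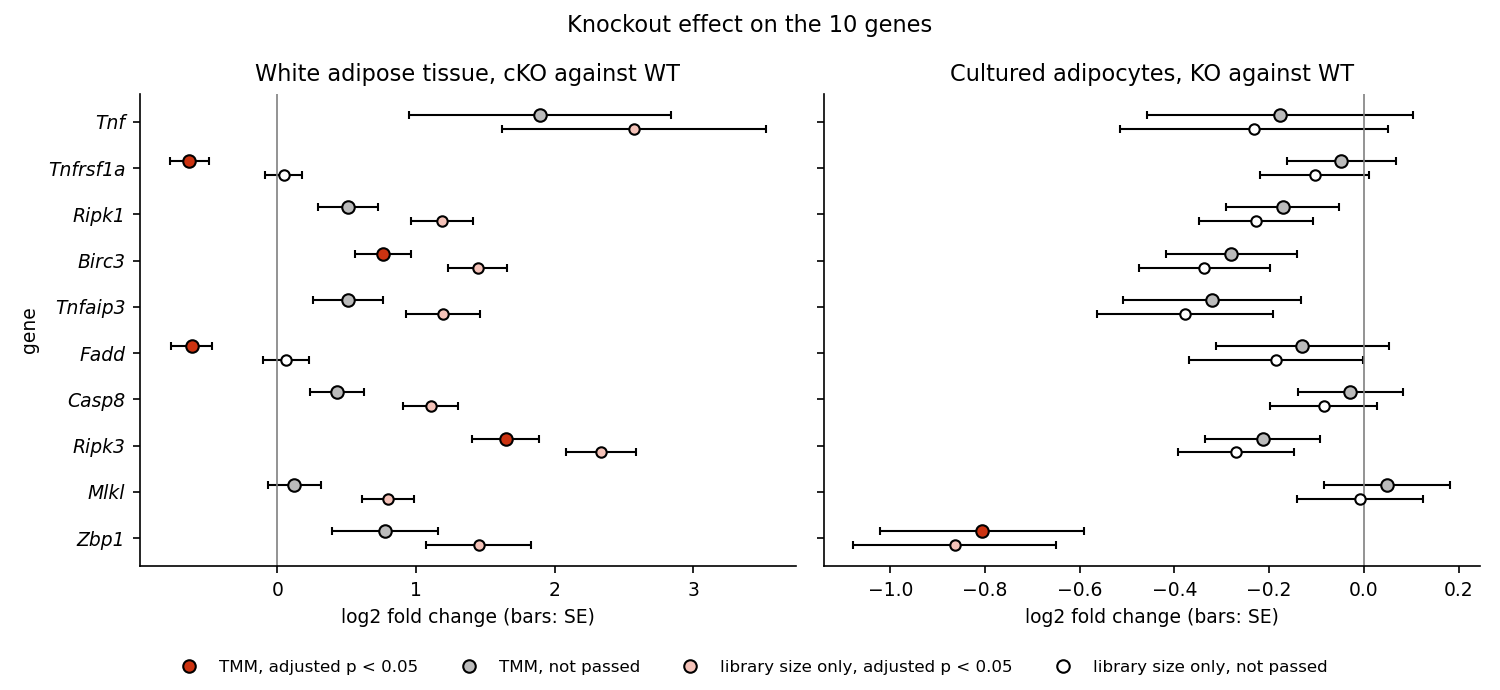
Log2 fold change of knockout against WT for the 10 genes, with SE, in WAT (left) and culture (right; narrower axis), under TMM scaling and under library size only. Every WAT value moves to the right under library size only, which takes Fadd and Tnfrsf1a from below 0 to about 0.

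Tnf, the ligand, is hard to read in WAT because the table lists the symbol at 4 loci (Tnf, Tnf-2, Tnf-3 and Tnf-4), and the sources used here do not say whether a read was counted once or at each of them. The row named Tnf (GRCm38, chromosome 17, 35199367 to 35202007) had 6, 10 and 0 reads in WT and 57, 19 and 32 in cKO, where a count of 0 allows up to 3 reads. Every cKO library was above every WT library, and the log2 fold change was 1.89 (SE 0.95, adjusted p = 0.130), which did not pass. That row passed with library size only (2.58, adjusted p = 0.0475) and in 1 fit over 4 groups (1.93, adjusted p = 0.0286). Over the 4 loci together the reads were 27, 46 and 32 in WT and 242, 96 and 142 in cKO, again without overlap. With these copies summed Tnf did pass (log2 fold change 1.35, adjusted p = 0.0314). The neighbouring gene Lta had 1, 2 and 0 reads at each of its 4 loci in cKO replicates 1, 2 and 3. In WT replicate 3 it had 5 reads at Lta-4 and 0 at its other loci. If a read was counted at each locus, the sum holds it more than once, and the summed result rests on repeated reads.

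WT replicate 3 stood apart in how its Tnf reads were placed: 93.8% of them were at Tnf-4, against 23.9% to 27.1% in the other 5 libraries. The neighbouring gene Ltb had 170 reads at Ltb-4 in the same library and 33 to 39 at its other loci. Read in each library at the locus with most reads, an alternative chosen after these counts were seen, Tnf had a log2 fold change of 0.59 (adjusted p = 0.432). The direction was the same in all of these readings and the size was not, and at 0 to 67 reads per locus the depth does not fix it. The row passed the filter on low counts only through the cKO libraries.

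**Figure D3:**
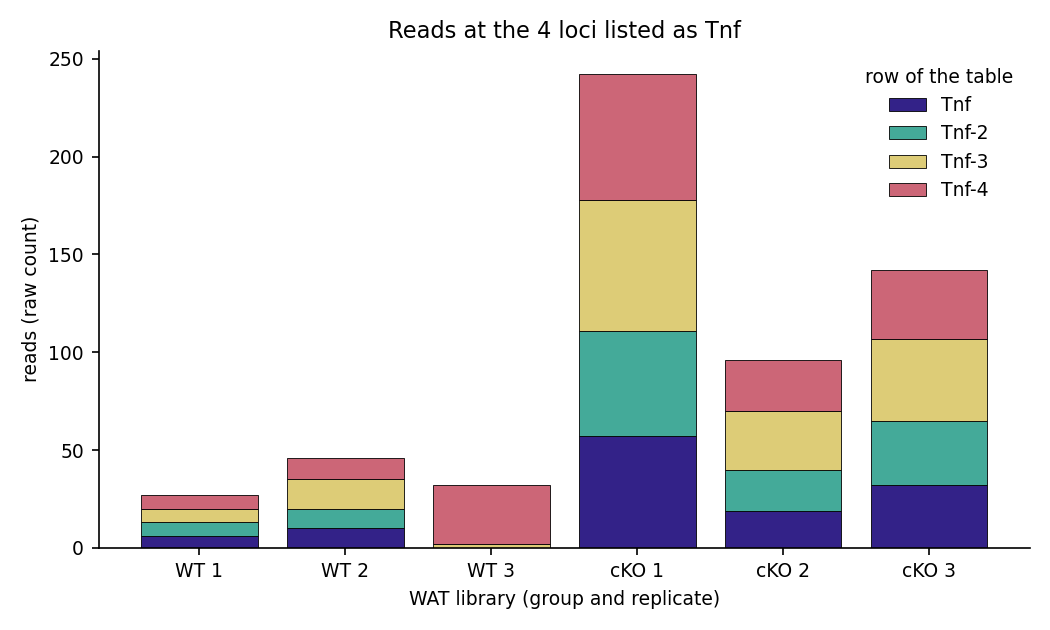
Raw reads at the 4 loci listed as Tnf in each WAT library, stacked. The cKO totals of 242, 96 and 142 lie above the WT totals of 27, 46 and 32, and WT replicate 3 has nearly all of its reads at Tnf-4.

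Tnfrsf1a (chromosome 6, 125349723 to 125362483), the death receptor, stood at 301, 391 and 346 CPM in WT and 227, 231 and 209 CPM in cKO WAT. The groups did not overlap, and the log2 fold change was -0.64 (SE 0.14, adjusted p = 0.00826). The call held without each library in turn (adjusted p up to 0.0352) but did not survive removal of the trend with length and GC content in each library (-0.23, adjusted p = 0.157), besides the change of sign with library size only. The other TNF receptor gene, Tnfrsf1b, which lacks a death domain, rose in the same libraries from 23.3 ± 2.00 CPM (SD, n = 3) to 128 ± 40.6 CPM (2.46, SE 0.26, adjusted p = 0.000701).

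Ripk1 (chromosome 13, 34002225 to 34035170), the kinase and scaffold of the receptor complex, was at 29.8, 21.3 and 38.8 CPM in WT, against 47.3, 40.2 and 40.5 CPM in cKO WAT. The groups did not overlap, but WT replicate 3 lay just under the lowest cKO library, and the gene did not pass (0.51, SE 0.22, adjusted p = 0.0838). Without WT replicate 3 it did (0.74, adjusted p = 0.0272). No other omission of 1 library let Ripk1 pass, with values down to 0.31 (adjusted p up to 0.238). It passed with library size only (1.19, adjusted p = 0.00313) and in 1 fit over 4 groups (0.55, adjusted p = 0.0166). With the length and GC correction its value was 0.07 (adjusted p = 0.807). Part of Ripk1 overlaps Serpinb6a, and without knowledge of strand some reads could belong to either.

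Birc3 (chromosome 9, 7847468 to 7873205), which encodes cIAP2, was at 12.3, 10.2 and 15.2 CPM in WT and 24.9, 17.9 and 21.3 CPM in cKO WAT. All cKO libraries were above all WT libraries (log2 fold change 0.76, SE 0.20, adjusted p = 0.0167). The call rested on each of 3 libraries: it was lost without WT replicate 1 (0.75, adjusted p = 0.0518), WT replicate 2 (0.63, adjusted p = 0.0559) or cKO replicate 1 (0.62, adjusted p = 0.0737). Its neighbour and close relative Birc2, which encodes cIAP1 and begins 10337 bases away, was higher as well (0.94).

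Tnfaip3 (chromosome 10, 19000910 to 19015410), the gene of the NF-kB brake A20 and the one with kappa B matches in its promoter, was at 9.50, 10.2 and 14.5 CPM in WT and 20.4, 12.1 and 16.2 CPM in cKO WAT. WT replicate 3 lay above cKO replicate 2, and the gene did not pass (0.51, SE 0.25, adjusted p = 0.130). It passed under 1 of 16 alternatives, library size only (1.19, adjusted p = 0.00654). Among the 10 genes, Ripk1, Casp8, Mlkl, Zbp1, Tnfaip3 and Birc3 each had their highest WT level in replicate 3, the WT library with the highest skeletal muscle and macrophage marker sums; the part of this was not tested.

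Fadd (chromosome 7, 144578323 to 144582441), the adaptor that carries caspase-8 to the receptor, was at 25.3, 26.7 and 26.0 CPM in WT and 17.0, 14.2 and 19.5 CPM in cKO WAT. The WT libraries lay close together and all were above the cKO libraries (-0.62, SE 0.15, adjusted p = 0.0119). The call held without each library in turn (adjusted p up to 0.0402). Casp8 (chromosome 1, 58795233 to 58847503), the initiator caspase, was at 42.1, 45.5 and 67.8 CPM in WT and 71.6, 73.7 and 63.9 CPM in cKO. WT replicate 3 lay above cKO replicate 3, and Casp8 did not pass (0.43, SE 0.20, adjusted p = 0.103), though it did without WT replicate 3 (0.67, adjusted p = 0.0155). Fadd and its partner thus had values of opposite sign on the TMM scale.

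Ripk3 (chromosome 14, 55784995 to 55788857), the kinase that commits a cell to necroptosis, had the clearest difference of the 10. It was at 5.75, 8.89 and 7.11 CPM in WT and 24.0, 17.2 and 27.0 CPM in cKO WAT, so that the lowest cKO library was well above the highest WT library. The log2 fold change was 1.65 (SE 0.24, adjusted p = 0.00177). It stayed past the threshold under all 16 alternatives (adjusted p up to 0.00986). The locus overlaps the noncoding gene Gm32092.

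Mlkl (chromosome 8, 111311255 to 111338479), the substrate of RIPK3, lay between 16.0 and 24.8 CPM in WT, and was at 23.9, 23.1 and 19.1 CPM in cKO WAT. On the TMM scale the groups overlapped, and the log2 fold change of 0.12 (SE 0.19, adjusted p = 0.612) turned to -0.03 without WT replicate 1. Mlkl passed under 1 of 16 alternatives, library size only (0.80, adjusted p = 0.00808), where the groups did not overlap. Zbp1 (chromosome 2, 173206612 to 173218959), the nucleic acid sensor, was at 11.2, 23.4 and 32.1 CPM in WT and 40.1, 48.1 and 26.3 CPM in cKO. WT replicate 3 exceeded cKO replicate 3, and the change did not pass (0.78, SE 0.38, adjusted p = 0.125). Zbp1 passed under 2 of 16 alternatives, library size only (1.45, adjusted p = 0.0127) and 1 fit over 4 groups (0.82, adjusted p = 0.0441).

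Counted by library, 4 of the 10 genes (Ripk1, Ripk3, Tnf and Birc3) had every cKO library above every WT library in WAT, where 35.1% of all genes did, and 2 (Fadd and Tnfrsf1a) had every cKO library below, where 29.3% did. Tnf passed the filter on low counts only through the cKO libraries, so its place among the 4 is no result. Among the cKO libraries, replicate 2 had the lowest macrophage marker sum (1848 CPM, against 3683 and 4060 CPM) and the highest adipocyte marker sum. It also had the lowest Ripk3, Birc3, Tnf, Tnfaip3, Ripk1 and Fadd of the group and the highest Zbp1, Casp8 and Tnfrsf1a, with Mlkl between the other libraries. With that library left out, the same 4 genes of the 10 passed.

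A ratio of reads within 1 library does not depend on scaling, so each gene was also set against Ripk1 in its own library (0.5 reads were added to each count). In WAT the log2 ratio of Ripk3 to Ripk1 was -2.37, -1.26 and -2.44 in WT and -0.98, -1.22 and -0.59 in cKO. The groups did not overlap, by a narrow margin between WT replicate 2 and cKO replicate 2, and their means differed by 1.09. For Fadd the ratio was -0.24, 0.32 and -0.57 in WT and -1.47, -1.50 and -1.06 in cKO, a difference of -1.18. For Tnfrsf1a it was 3.34, 4.19 and 3.16 in WT and 2.27, 2.52 and 2.37 in cKO, also a difference of -1.18. Each of these 3 differences had p = 0.1 in the two-sided exact permutation test, which is the smallest p that 3 against 3 libraries allow, so none could reach 0.05. The other 6 ratios overlapped between groups, among them that of Casp8 to Ripk1 (-0.09) and of Mlkl to Ripk1 (-0.41). The ratios describe change relative to Ripk1 only, and the choice of Ripk1 as the reference sets their size. The share of all genes whose ratio to Ripk1 did not overlap was not computed. The number of ratios without overlap is therefore no result about these genes.

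**Figure D4:**
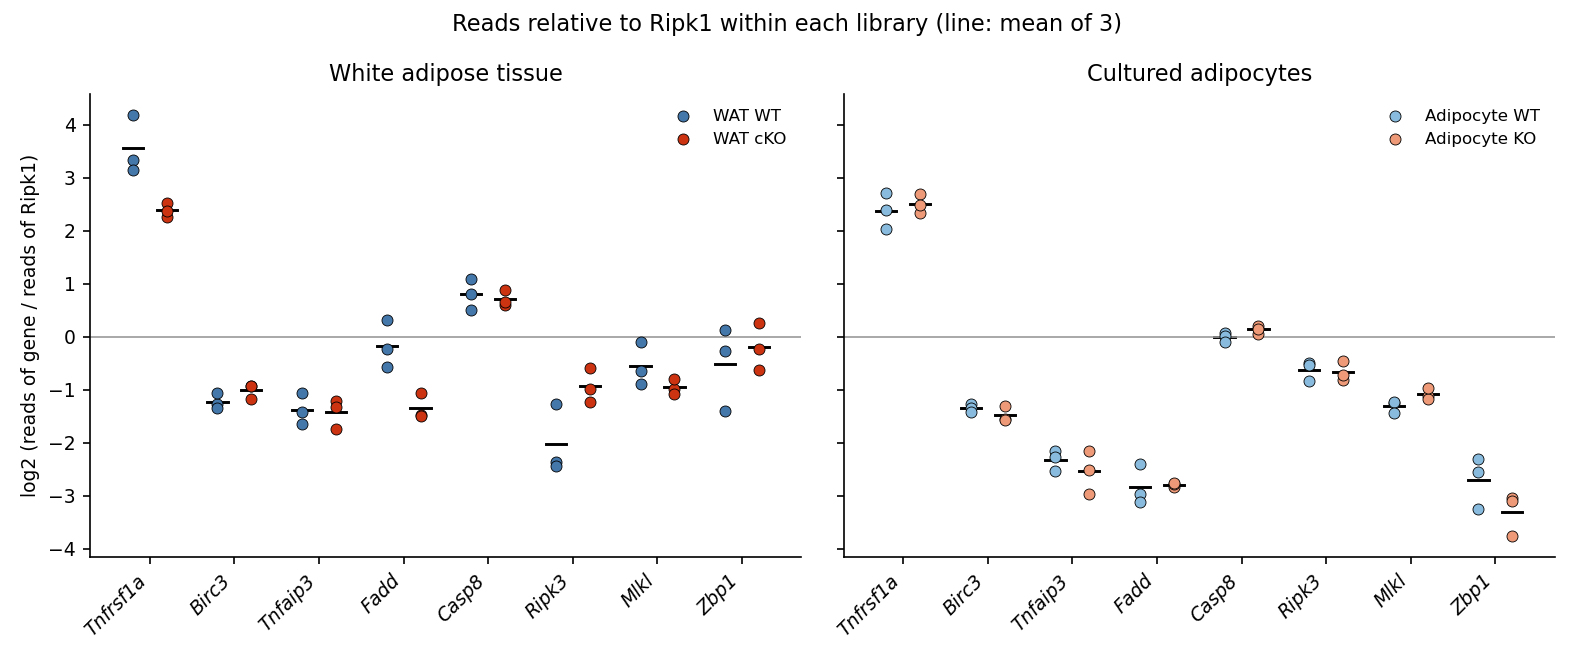
Log2 ratio of the reads of 8 genes to those of Ripk1 in the same library, in WAT (left) and culture (right); points are libraries and lines are means of 3. In WAT the cKO points of Ripk3 lie above and those of Fadd and Tnfrsf1a below the WT points, and in culture Mlkl alone among the 8 shows no overlap. The share of all genes without overlap was not computed.

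In cultured adipocytes 1 of the 10 genes changed: Zbp1 fell to 57.2% of the WT level in KO. None was higher. Across all 12587 genes tested there, 10.6% were lower and 8.94% higher in KO. The median log2 fold change of the 10 genes was -0.17, against -0.02 over all genes, and 9 of the 10 values were negative. Library size only shifted the culture values by -0.06 and changed no call among the 10.

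Zbp1 was at 9.29, 12.9 and 7.05 CPM in WT and 6.10, 4.51 and 6.24 CPM in KO cultures, without overlap (log2 fold change -0.81, SE 0.22, adjusted p = 0.0109). The difference rested on single libraries: the call was lost without WT replicate 2 (-0.54, adjusted p = 0.154) or KO replicate 2 (-0.66, adjusted p = 0.0740), and in 1 fit over all 4 groups (-0.80, adjusted p = 0.249). Ripk3 was at 38.8, 44.1 and 37.8 CPM in WT and 37.1, 34.7 and 32.5 CPM in KO. All KO libraries lay below all WT libraries, yet the change did not pass (-0.21, SE 0.12, adjusted p = 0.218). Birc3, at 22.6, 25.1 and 25.0 CPM in WT and 17.4, 20.6 and 21.7 CPM in KO, was likewise lower in every KO library (-0.28, SE 0.14, adjusted p = 0.155). Only the length and GC correction let it pass (-0.40, adjusted p = 0.0196). These 3 were the genes of the 10 with every KO library below every WT library, as 18.8% of all genes were; 18.0% of all genes and none of the 10 had every KO library above.

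Tnf was at 2.62, 2.35 and 2.77 CPM in WT and 1.97, 2.83 and 1.95 CPM in KO cultures, where the symbol has 1 row. KO replicate 2 was the highest of the 6, and the gene did not pass (-0.18, SE 0.28, adjusted p = 0.698). Tnfrsf1a was at 358, 334 and 277 CPM in WT and 330, 310 and 298 CPM in KO (-0.05, SE 0.11, adjusted p = 0.810). Tnfaip3 was at 12.3, 13.2 and 11.6 CPM in WT; KO replicates 1 and 2 were at 6.47 and 10.6 CPM, and KO replicate 3 was within the WT range (-0.32, SE 0.19, adjusted p = 0.235).

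The remaining genes of the cell-death complexes were close to WT in culture. Ripk1 was at 54.7, 63.9 and 67.3 CPM in WT and 50.7, 60.9 and 53.2 CPM in KO (-0.17, SE 0.12, adjusted p = 0.323). Casp8 was at 57.4, 64.9 and 62.7 CPM in WT and 58.6, 63.5 and 59.0 CPM in KO (-0.03, SE 0.11, adjusted p = 0.882). Both overlapped between genotypes. Fadd ranged from 7.76 to 10.3 CPM in WT and from 7.04 to 8.87 CPM in KO (-0.13, SE 0.18, adjusted p = 0.660). Mlkl was at 23.0, 27.3 and 24.9 CPM in WT and 23.4, 27.0 and 27.1 CPM in KO (0.05, SE 0.13, adjusted p = 0.834). Its log2 ratio to Ripk1 was higher in every KO library, by 0.22 on average (two-sided exact permutation p = 0.1, the smallest possible). The culture libraries held 3 macrophage markers that were lower in KO (Cd68, Csf1r and Lyz2), and the part of this in the values of Zbp1, Ripk3 and Birc3 was not tested.

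The knockout effect differed between tissue and culture for 5 of the 10 genes, by an interaction test over all 12 libraries in which 48.8% of 14463 genes passed. The difference, WAT effect minus culture effect, was 1.89 for Ripk3 (SE 0.26, adjusted p = 0.000104), 1.62 for Zbp1 (SE 0.49, adjusted p = 0.0153) and 1.08 for Birc3 (SE 0.24, adjusted p = 0.00251). It was 0.72 for Ripk1 (SE 0.25, adjusted p = 0.0323) and -0.56 for Tnfrsf1a (SE 0.18, adjusted p = 0.0234). Zbp1 and Ripk1 are among these although neither passed in the main WAT fit. Ripk3 and Birc3 kept the call under every alternative. Zbp1 lost it without Adipocyte WT replicate 2 (1.35, adjusted p = 0.0527). Tissue, age, day and depth all differ between the WAT and culture libraries and cannot be told apart.

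For Ripk1 the interaction did not survive the length and GC correction (0.24, adjusted p = 0.429), nor the omission of any of 7 libraries. These were WAT WT replicate 1 (0.70, adjusted p = 0.0587), WAT WT replicate 2 (0.52, adjusted p = 0.0624), WAT cKO replicate 1 (0.66, adjusted p = 0.0680), Adipocyte WT replicate 2 (0.69, adjusted p = 0.0740), Adipocyte WT replicate 3 (0.65, adjusted p = 0.0801), Adipocyte KO replicate 1 (0.66, adjusted p = 0.0798) and Adipocyte KO replicate 3 (0.69, adjusted p = 0.0690). For Tnfrsf1a it did not survive that correction either (-0.22, adjusted p = 0.196), nor the omission of WAT WT replicate 2 (-0.47, adjusted p = 0.0592), WAT cKO replicate 3 (-0.48, adjusted p = 0.0565), Adipocyte WT replicate 3 (-0.46, adjusted p = 0.0543) or Adipocyte KO replicate 1 (-0.52, adjusted p = 0.0551). With library size only its sign turned (0.10, adjusted p = 0.650).

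The 5 genes whose effects were not shown to differ were Tnfaip3 (0.88, SE 0.35, adjusted p = 0.0531), Tnf (2.11, SE 0.93, adjusted p = 0.0763), Casp8 (0.49, SE 0.22, adjusted p = 0.0771), Fadd (-0.45, SE 0.23, adjusted p = 0.122) and Mlkl (0.11, SE 0.23, adjusted p = 0.714). Of these, Mlkl had the smallest difference. The Tnf difference passed with copies summed (1.59, adjusted p = 0.0226), with DESeq2 (adjusted p = 0.0253), limma voom (2.76, adjusted p = 0.0387), the length and GC correction (2.57, adjusted p = 0.0404) and library size only (2.76, adjusted p = 0.0220), and without WAT WT replicate 2 (2.89, adjusted p = 0.0393) or WAT cKO replicate 2 (2.43, adjusted p = 0.0452). Tnfaip3 passed with library size only (adjusted p = 0.00306), with copies summed (0.0499) and without WAT WT replicate 3 (0.0265), WAT cKO replicate 2 (0.0167) or Adipocyte KO replicate 3 (0.0366). Casp8 passed with library size only (adjusted p = 0.000765), with the length and GC correction (0.0243) and without WAT WT replicate 3 (0.00307). Mlkl passed with library size only.

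The genes differed widely in level. Per kilobase of the longest annotated transcript, with TMM scaling within WAT or within culture, Tnfrsf1a was highest in all 4 groups, at 160 ± 20.8 CPM per kb (SD, n = 3) in WAT WT, 103 ± 5.33 in WAT cKO, 150 ± 19.3 in Adipocyte WT and 145 ± 7.44 in Adipocyte KO. By mean, Casp8 came next in every group (20.1 ± 5.40 CPM per kb in WAT WT), and Tnf was lowest. The range of Casp8 overlapped that of Ripk3 in Adipocyte WT, and the range of Tnf overlapped that of Tnfaip3 in Adipocyte KO. Ripk3 changed place: it ranked 8 of 10 in WAT WT, at 3.69 ± 0.801 CPM per kb, and 3 of 10 in WAT cKO (11.6 ± 2.55), Adipocyte WT (20.5 ± 1.73) and Adipocyte KO (17.7 ± 1.16). In WAT WT it was below Mlkl in every library, and in both culture groups above it in every library. Neighbours whose ranges overlapped included Zbp1 and Fadd in WAT WT and Ripk3, Zbp1 and Mlkl in WAT cKO.

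To set the 4 groups side by side, CPM were put on 1 TMM scale over all 12 libraries, without length, so these values differ from those above. Ripk3 was highest in Adipocyte WT (44.9 ± 3.80 CPM, SD, n = 3), then Adipocyte KO (39.0 ± 2.51 CPM), WAT cKO (24.2 ± 5.39 CPM) and WAT WT (7.50 ± 1.63 CPM), each group below the one before in every library. Ripk1 followed the same order from 69.2 ± 7.26 to 31.0 ± 8.93 CPM, with overlap between the culture groups. Fadd ran the other way, from 26.9 ± 0.716 CPM in WAT WT through 18.0 ± 2.86 CPM in WAT cKO to 9.75 ± 1.53 and 8.88 ± 1.04 CPM in the cultures, whose ranges overlapped. Zbp1 was highest in WAT cKO (40.7 ± 11.7 CPM) and WAT WT (23.0 ± 10.8 CPM), which overlapped, and lowest in Adipocyte KO (6.30 ± 1.08 CPM). Tnfrsf1a was lowest in WAT cKO (223 to 245 CPM), below the other 3 groups in every library, and those 3 overlapped. These orders rest in part on the scale. By library size only, Fadd overlapped between WAT WT (20.11 to 20.81 CPM) and WAT cKO (17.41 to 25.3 CPM). Tnfrsf1a in WAT cKO then reached 288.2 CPM, above the lowest library of WAT WT (239.8 CPM) and of Adipocyte WT (282.1 CPM). For Ripk3 and Ripk1, WAT cKO then overlapped Adipocyte KO, and for Zbp1 the WAT groups no longer overlapped.

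Mlkl ranged from 21.0 ± 4.45 CPM in WAT WT to 29.0 ± 2.45 CPM in Adipocyte KO, and Casp8 from 53.6 ± 14.2 CPM in WAT WT to 74.3 ± 5.45 CPM in WAT cKO. Birc3 was lowest in WAT WT (13.0 ± 2.55 CPM) in every library, and its other 3 groups ran from 22.3 ± 2.55 to 27.1 ± 1.57 CPM. WAT cKO overlapped both culture groups, while every Adipocyte KO library was below every Adipocyte WT library. Tnfaip3 ran from 10.9 ± 3.26 to 17.3 ± 4.50 CPM with every neighbouring pair of groups overlapping. By library size only, every WAT cKO library was above the other 3 groups for Tnfaip3, and above Adipocyte KO for Birc3. Mlkl then had its highest mean in WAT cKO (27.85 CPM). Tnf summed over loci was highest in WAT cKO (3.93 ± 1.85 CPM), whereas the single row was highest in Adipocyte WT (2.88 ± 0.237 CPM), so its order depends on how the copies are read. WAT and culture came in separate tables of the authors, and levels set across them carry that difference.

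The genes with the most similar profile over the 12 libraries were found by the root mean square difference of log2 levels centred on each gene's mean, among 11722 genes (11897 for Tnf). For Zbp1 they were Ifit3 (0.20) and Rtp4 (0.32), both known as interferon-stimulated genes. For Ripk3 they were Nab2 (0.17) and Tacc3 (0.18), and for Birc3 Cxcl12 (0.11) and Camsap1 (0.13). The nearest to Ripk1 were Ppfibp1 and Ccnyl1, to Mlkl Rexo4 and Trim26, to Fadd Stat5b and Zmym3, and to Tnfaip3 Rgs12 and Ncoa3. Near Tnf was Clec5a (0.40), a receptor gene of myeloid cells. For Tnfrsf1a they were Pcbp1 and Umps (both 0.10). No gene of the 10 was among the 2 nearest of another.

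Beyond the 10 genes, 5 further lists of the pathway held 89 genes, of which 87 were tested in WAT and 82 in culture. In WAT 41 were higher and 18 lower, with a median log2 fold change of 0.39 against 0.12 over all genes. With library size only the split was 63 higher and 1 lower, and 17 of the 18 lower genes lost the call; the 1 that kept it was Ifnar2. In culture 3 were higher and 18 lower, with a median of -0.10 against -0.02. The lower genes in culture numbered 8, 5, 22, 11, 10 and 9 without WT replicate 1, 2 or 3 or KO replicate 1, 2 or 3, and 0 in 1 fit over 4 groups. The backgrounds over all genes are those given above, 28.2% and 24.2% in WAT and 8.94% and 10.6% in culture. With library size only those of WAT were 54.2% and 8.76%, with a median of 0.80 over all genes.

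Of 24 genes of the receptor complex, 12 were higher and 4 lower in cKO WAT. Ikbke, a kinase of the IKK family, rose from 8.35 ± 0.446 to 39.1 ± 7.78 CPM (2.23, SE 0.18, adjusted p = 0.000486), and Tab2, an adaptor of the kinase TAK1, from 28.1 ± 5.30 to 61.2 ± 1.59 CPM (1.12, SE 0.16, adjusted p = 0.00149). The 4 lower genes were Rbck1 (-0.79) and Rnf31 (-0.53), subunits of the linear ubiquitin ligase, Tnip1 (-0.63), a partner of A20, and Mapkapk2 (-0.50), a kinase that acts on RIPK1. In WAT Mapkapk2 failed to pass in 3 of the 6 fits that omit 1 library (adjusted p up to 0.0727). In culture 2 of the 24 were higher, Birc2 (0.51), at 0.44 when WT replicate 2 was omitted (adjusted p = 0.0772), and Tax1bp1 (0.50), another partner of A20, and 2 were lower, Spata2 (-0.44) and Mapkapk2 (-0.33). Spata2 did not pass when any library but WT replicate 3 was omitted (adjusted p up to 0.117), nor Mapkapk2 when WT replicate 1 or 2 or KO replicate 2 or 3 was (up to 0.174).

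Among 16 genes of ligands, receptors and ligand processing, 15 were tested in WAT, with 5 higher and 1 lower. Adam17, the protease that releases TNF from the membrane, rose from 21.7 ± 0.581 to 55.0 ± 7.81 CPM (1.34, SE 0.14, adjusted p = 0.000697). Tnfsf12, which encodes the ligand TWEAK, rose by 1.37 (SE 0.27, adjusted p = 0.00522), and its receptor gene Tnfrsf12a by 0.59. The others were Tnfrsf1b, given above, and the death receptor gene Tnfrsf21 (1.03), with Ltbr, the lymphotoxin beta receptor gene, lower (-0.41). Omitting WT replicate 2 or cKO replicate 1 left 3 higher and 0 lower, and Tnfrsf12a and Ltbr each failed to pass in 5 of the 6 fits that omit 1 library (adjusted p up to 0.121 and 0.122). In culture 11 were tested, 0 were higher and 6 lower, among them Zfp36, whose product destabilises Tnf mRNA (-0.63, SE 0.12, adjusted p = 0.000876). Tnfsf12 (-0.76) was another, without WT replicate 1 at -0.60 (adjusted p = 0.0815).

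For 15 genes of death execution the balance in WAT was 4 higher and 7 lower, with a median of -0.33 against 0.12 over all genes. With library size only it became 7 higher and 0 lower, with a median of 0.35. On that scale the median over all genes was 0.80, with 54.2% higher and 8.76% lower. With the length and GC correction the balance of these 15 genes was 1 higher and 4 lower, with a median of -0.0074. It was 2 higher and 5 lower without WT replicate 2 or without cKO replicate 1. The flotillin genes Flot1 (-0.82, adjusted p = 0.00555) and Flot2 (-0.97, adjusted p = 0.00146), whose products help remove MLKL from the membrane, were lower; Flot1 did not pass with that correction (-0.37, adjusted p = 0.104). The 4 higher were Cflar (0.53), the caspase-8 regulator cFLIP whose gene lies 36349 bases from Casp8, the chaperone gene Hsp90aa1 (1.23), Peli1 (0.92), a ubiquitin ligase that acts on RIPK3, and Pdcd6ip (0.39), an ESCRT accessory gene. Cflar, Peli1 and Pdcd6ip failed to pass in 2, 3 and 4 of the 6 fits that omit 1 library (adjusted p up to 0.0736, 0.0853 and 0.116). In culture 1 was higher, Hsp90aa1 (0.47, adjusted p = 0.0107), and 1 lower, Flot2 (-0.34, adjusted p = 0.0452). Leaving out WT replicate 1 (adjusted p = 0.0745 and 0.197) or WT replicate 2 (0.0697 and 0.167) left neither past the threshold, and Flot2 fell short without each KO replicate as well (0.0640 to 0.175).

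Of 16 genes that feed nucleic acid or Toll-like receptor signals into the pathway, 11 were higher and 2 lower in cKO WAT. Eif2ak2, the double-stranded RNA kinase PKR, rose from 14.0 ± 1.12 to 30.8 ± 2.58 CPM (1.14, adjusted p = 0.000895), and Ddx58, which encodes RIG-I, rose by 0.82 (adjusted p = 0.00137). Ifnar2, a chain of the type I interferon receptor, fell by 1.19 (adjusted p = 0.000905) and by 0.51 with library size only (adjusted p = 0.0103), and Mavs, the adaptor of RIG-I, fell by 0.93. In culture 0 were higher and 3 lower: Stat2 (-0.64), Adar (-0.61), which edits double-stranded RNA, and Ticam1 (-0.41), the adaptor TRIF, which shares the interaction motif of RIPK1, RIPK3 and ZBP1. All 3 calls depended on WT replicate 2 (adjusted p without it 0.0616, 0.0764 and 0.225), and that of Ticam1 also on WT replicate 1 (0.150), KO replicate 1 (0.0696), KO replicate 2 (0.0716) and KO replicate 3 (0.129).

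Of 18 NF-kB subunits and targets, 17 were tested in WAT, with 9 higher and 4 lower. Rel, a subunit, rose from 2.48 ± 0.313 to 9.94 ± 1.60 CPM (2.00, adjusted p = 0.000883), Tnfaip2 by 2.18 (adjusted p = 0.00228) and Cxcl2, a chemokine gene, by 3.40 (adjusted p = 0.00124). Cxcl2 passed the filter on low counts only through the cKO libraries (0.174 to 0.292 CPM in WT, 1.89 to 3.31 CPM in cKO), so it had to differ, and it was not tested in culture. The 4 lower genes were Relb (-0.42), the inhibitor genes Nfkbia (-0.52) and Nfkbib (-0.38) and Sod2 (-1.37). With library size only Relb (0.26), Nfkbia (0.16) and Nfkbib (0.29) turned positive. Relb and Nfkbib failed to pass in 5 and 4 of the 6 fits that omit 1 library (adjusted p up to 0.102 and 0.0942). In culture 16 were tested, 0 were higher and 6 lower, including the chemokine genes Ccl2 (-0.59, adjusted p = 0.000900) and Cxcl1 (-1.03, adjusted p = 0.00192) and Tnfaip2 (-0.53, adjusted p = 0.00265), each of which held without every single library. In these 5 lists, genes other than the 3 with the smallest p per list and comparison were named after their values were seen. Without at least 1 library, 19 of the 59 WAT calls and 16 of the 21 culture calls were lost. In 1 fit over 4 groups 0 of the 59 WAT calls and all 21 culture calls were lost.

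**Figure D5:**
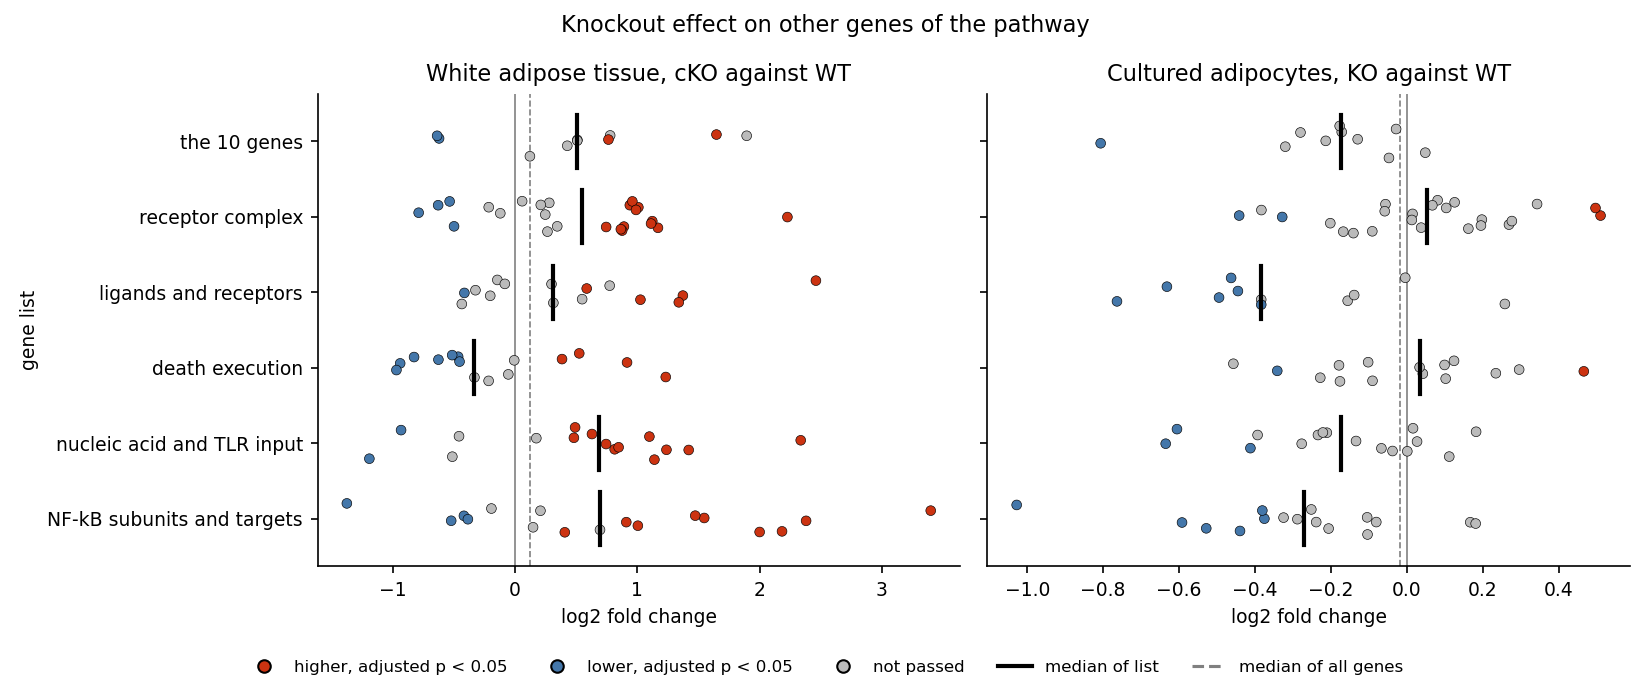
Log2 fold change of the 10 genes and of 5 further lists of the pathway in WAT (left) and culture (right; narrower axis); each point is a gene, coloured by call at an adjusted p of 0.05, with the list median (black bar) and the median of all genes (dashed line). The WAT lists carry calls in both directions, and the culture calls are mostly lower, 18 of 21.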

How the data were processed

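RNA was extracted with TRIzol and turned into libraries with an MGIEasy mRNA kit, per the labels' protocols. The authors deposited 1 table of raw counts for WAT (26639 features) and 1 for culture (22851), which share 21669 symbols. FastQC 0.11.2, cutadapt 1.11, HISAT2 2.1.0 and GRCm38 are named in the submitters' processing notes. The counter, annotation and strand setting were not found there, so reads of overlapping genes or near-identical copies cannot be placed with certainty. Every sample column was used. Every pair of libraries within a group differed by more than counting error (chi-square test of their reads), so none was counted as a duplicate.

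Sample titles gave the groups. The 6 libraries of WAT and the 6 of culture were fitted apart, and all 12 together for the interaction, with edgeR 4.0.16 in R 4.3.3 (quasi-likelihood test, filterByExpr at a minimum count of 10, TMM). The threshold was a Benjamini-Hochberg adjusted p of 0.05 over all genes tested, and adjusted p-values come from this test. The SE is the size of the log2 fold change divided by the square root of F. The biological coefficient of variation was 0.319 for WAT and 0.114 for culture. Floors cover counting error only. The fits were tested on simulated data.

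Alternatives were RLE size factors, library size only, no count filter, a block on the replicate number, DESeq2 1.42.0, limma 3.58.1 voom, removal of each library's trend with the length and GC content of transcripts (known for 85.8% of the WAT genes and 98.0% of the culture genes that were tested), numbered copies summed, 1 fit over 4 groups and each library left out. After the data were seen, Tnf at its locus with most reads and culture libraries thinned to the smallest total were added.

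The 10 genes and all lists were chosen with earlier results of these data known. Named besides the 10 were Fam50a, the 3 genes with the smallest p in each list and comparison, and the 2 nearest profiles of each gene, leaving out predicted, clone-named and pseudogene loci; some genes that this rule names are not reported here. Gene coordinates come from RefSeq on GRCm38 and transcript lengths from GENCODE on that build.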

Additional observations from a re-analysis of the deposited data

Results flagged for a closer look

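For 5 of the 10 genes the knockout effect differed between WAT and culture by the interaction test. As 48.8% of all genes passed that test, the count is near the share over all genes. The differences of log2 fold changes (WAT minus culture) were 1.89 for Ripk3, 1.62 for Zbp1, 1.08 for Birc3, 0.72 for Ripk1 and -0.56 for Tnfrsf1a. Those of Ripk3 and Birc3 held under every alternative, and those of Zbp1, Ripk1 and Tnfrsf1a rested on single libraries.

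The same test passed for 21 of the 25 other genes taken from the lists by the rule for named genes, beside 48.8% of all genes. These genes were taken for a small p in the same libraries, so their share that passed is no result. In 17 the WAT effect was the more positive: Cxcl2 (3.25), Ccl2 (3.01), Tnfrsf1b (2.96), Tnfaip2 (2.75), Ikbke (2.65), Cxcl1 (2.55), Rel (2.17), Tnfsf12 (2.17), Stat2 (1.52), Adam17 (1.38), Tab2 (1.25), Ddx58 (1.24), Eif2ak2 (1.15), Adar (1.13), Ticam1 (0.62), Zfp36 (0.58) and Tax1bp1 (0.53). In 4 it was the more negative: Ifnar2 (-0.94), Flot1 (-0.83), Rbck1 (-0.77) and Flot2 (-0.59).

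Reads of Tnf were also listed in WAT at 3 numbered loci (Tnf-2, Tnf-3 and Tnf-4) outside the row that the main test reads. These held 372 reads in the cKO libraries and 89 in the WT libraries, 30 of the latter at Tnf-4 in WT replicate 3.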

How the results depend on the processing

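Of the 10 genes, 4 passed in WAT, 8 with library size only, 8 in 1 fit over 4 groups and 3 to 6 with 1 library left out. In culture 1 passed, 2 with the length and GC trend removed, 0 in 1 fit over 4 groups and 0 to 1 with 1 library left out. By interaction 5 passed, 8 with library size only and 3 to 7 with 1 library left out. Of all genes tested in WAT, 28.2% were higher and 24.2% lower, and with library size only 54.2% and 8.76%. In culture 8.94% of all genes were higher and 10.6% lower, and 48.8% passed by interaction. Over all genes, the culture count of 2459 was 146 in 1 fit over 4 groups, whose shared spread includes that of WAT, and 897 to 3380 with 1 library left out.

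Some signs turned. The cause was not tested, other than that library size only moves all WAT values up together. With library size only, signs turned in WAT for Fadd (0.064), Tnfrsf1a (0.044) and Fam50a (0.089), from -0.62, -0.64 and -0.60, in culture for Mlkl (-0.0081) and in the interaction for Fadd (0.20), Tnfrsf1a (0.096) and Fam50a (0.35). With the length and GC trend removed they turned in culture for Mlkl (-0.069) and Tnfrsf1a (0.018) and in the interaction for Fam50a (0.098). With 1 library left out, Mlkl ranged from -0.025 to 0.29 in WAT, from -0.0035 to 0.13 in culture and from -0.040 to 0.28 in the interaction. In culture Casp8 ranged from -0.071 to 0.024, Fadd from -0.22 to 0.012 and Tnfrsf1a from -0.14 to 0.039.

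In WAT the replicate numbers did not pair the samples: deviations of same-numbered libraries correlated at -0.34, 0.02 and -0.21. Those of WAT libraries with other numbers correlated at -0.05 to 0.37. In culture, same-numbered libraries correlated at 0.24, 0.05 and 0.28, and libraries with other numbers at -0.27 to 0.09. Whether the numbers mark pairs in culture was not tested. With the replicate block the same number of the 10 genes passed in WAT (4), culture (1) and interaction (5), and 3824 culture genes in place of 2459.

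Depth limits Tnf most, with 0 to 57 reads in its WAT row.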
